A study of Mus musculus with 24 samples.

Results

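Megakaryocyte and platelet genes are described here in sorted stem and progenitor cells of mouse bone marrow. The set holds 32 genes listed by name and matched by Entrez identifier, out of 27179 genes in the count table. The rule uses no measured value, though the list was drawn up with earlier results of these data known. RNA of 3 sorted populations was sequenced, namely HSC (haematopoietic stem cells), MPP (multipotent progenitors) and HPC-1, a more restricted progenitor, from 8 mice, 1 with Phf6 deleted and 1 control from each of 4 litters, so that each of 6 groups held 4 libraries. Both groups carry 1 strain label, Phf6lox/Y;Tie2-creTg/+, that is a floxed allele of the X-linked gene Phf6 and a Cre transgene under the Tie2 promoter, which is active in endothelial and blood-forming cells. The groups differ in the label Phf6 status, deleted or intact, so whether the intact controls carry Cre is not stated; ages are not stated either, and no treatment is named. Phf6 encodes a chromatin and nucleolar protein. SMART-Seq v4 was the kit for HSC and MPP and TruSeq Stranded the kit for HPC-1, so for HPC-1 the kit and the population cannot be told apart and its levels were not set against those of HSC or MPP.

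Megakaryocytes are the marrow cells that shed platelets. Platelets adhere through the glycoprotein Ib-IX-V complex, the receptor for von Willebrand factor, aggregate through integrin alpha-IIb beta-3, the fibrinogen receptor, and release granule proteins such as platelet factor 4. Part of the mouse HSC pool is known to transcribe several of these genes, and in bulk RNA a smaller number of cells that transcribe a gene and less of its RNA per cell cannot be told apart.

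The glycoprotein Ib-IX-V complex recurs in the results as an example, its 4 subunits, Gp1ba, Gp1bb, Gp5 and Gp9, lying on 3 chromosomes. They differed in the same direction between HSC and MPP, which is not particular to them. Of 29 members tested, 28 had a negative fold change of MPP over HSC in controls, and 27 of 29 in deleted mice. Over all genes tested this held for 6924 of 13636 and 6753 of 13887. Some of the members, Gp1bb among them, entered these tests through their HSC libraries alone, as given below. The 250 bases before the start of 3 of them in the RefSeq promoter table are shown 5′ to 3′ on the gene's strand, with matches to 3 kinds of motif in capitals, searched on both strands with overlaps counted. The GATA motif was written as AGATAA, and its variant form as TGATAA. The ETS motif was written as CCGGAAG, and its variant form as CAGGAAG. The RUNX motif was written as TGTGGT, and its variant form as TGCGGT. The coordinates are on GRCm38.p6, Gp5 lying on the minus strand at chr16:30310782-30311031. Gp1ba lies on the plus strand at chr11:70638872-70639121, and the end of that window is inside the RefSeq span of the gene (70639102 to 70643986). Gp9 lies on the plus strand at chr6:87777820-87778069, inside the RefSeq span of the gene (87776131 to 87779786). None of the 3 windows overlaps an exon in GENCODE. For Gp1bb the same window, chr16:18622404-18622653, lies wholly inside an annotated exon of its neighbour Septin5, held no match, and is not printed.
Gp1ba: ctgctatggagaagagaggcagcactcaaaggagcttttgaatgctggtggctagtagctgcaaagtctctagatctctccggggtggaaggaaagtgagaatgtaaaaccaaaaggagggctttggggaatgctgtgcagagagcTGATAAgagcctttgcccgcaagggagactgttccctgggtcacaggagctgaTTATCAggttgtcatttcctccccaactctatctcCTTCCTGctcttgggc
Gp5: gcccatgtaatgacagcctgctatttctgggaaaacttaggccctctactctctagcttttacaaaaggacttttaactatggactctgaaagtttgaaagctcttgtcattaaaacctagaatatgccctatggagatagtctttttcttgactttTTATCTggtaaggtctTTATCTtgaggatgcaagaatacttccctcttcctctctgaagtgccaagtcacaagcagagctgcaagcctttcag
Gp9: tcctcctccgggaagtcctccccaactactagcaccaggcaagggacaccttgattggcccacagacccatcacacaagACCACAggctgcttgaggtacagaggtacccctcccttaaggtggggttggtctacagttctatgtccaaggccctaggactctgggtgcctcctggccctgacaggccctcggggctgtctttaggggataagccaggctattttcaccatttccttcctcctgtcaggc

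The Gp1ba window held 2 GATA matches and 1 ETS match, the Gp5 window 2 GATA matches on the opposite strand and the Gp9 window 1 RUNX match. The ETS match lies 16 to 10 bases before the end of the Gp1ba window, in the stretch inside the gene's span. The RefSeq promoter table held 25 of the 32 members. A GATA match was present in 7 of them (28%), Clec1b, F2rl2, Gp1ba, Gp5, Gp6, Mmrn1 and P2rx1, against 17% of 27025 promoters. The shares were 8% against 16.8% for ETS (Gp1ba and Tuba8) and 12% against 18.7% for RUNX (F2r, Gp9 and Tuba8). The NF-E2 motif was in none of the members' windows and in 0.118% of all. These are counts of letters in short windows and say nothing of whether a factor binds there.

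Total counts ran from 9658167 to 27786830 per library, and the 32 members together took 0.356% to 0.468% of the counts in control HSC, 0.166% to 0.183% in control MPP and 0.0886% to 0.0988% in control HPC-1. Levels are CPM, counts relative to library size after TMM scaling, which sets the libraries of a kit on a common scale. Phf6 was lower in every deleted library than in the controls of its population, at 55.9 ± 17.8 CPM against 215.5 ± 23.9 in HSC, 56.0 ± 8.97 against 196 ± 26.9 in MPP and 27.5 ± 5.90 against 116 ± 18.6 in HPC-1 (SD, n = 4). Slamf1, which encodes the sort marker CD150, was at 67.3 ± 14.3 CPM in control HSC and 1.90 ± 0.62 in control MPP, and at 36.3 ± 19.2 and 1.26 ± 1.56 CPM in the deleted mice. The mouse is the replicate, and 1 library, the MPP library of the deleted mouse of litter 3, stood apart with 9.34% of its counts in 10 genes.

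In control mice, HSC and MPP differed widely in this set. Of the 32 members, 21 were lower in MPP than in HSC past the threshold (edgeR quasi-likelihood test, Benjamini-Hochberg adjusted p under 0.05 over all 13636 genes tested) and 0 were higher. Over all genes tested, 8.84% passed, 4.78% in the lower direction and 4.06% in the higher. Of the members, 29 entered the test and 3 did not pass the filter on low counts (Clec1b, Gp6 and Myl9). Gp1bb, Cavin2, Clu and Alox12 passed it through their HSC libraries alone, and the first 3 of these are counted in the 21. The list was drawn up with earlier results of these data known. The shares over all genes, here and below, are therefore no independent yardstick for it. All 4 MPP libraries lay below all 4 HSC libraries for 20 members, which held for 7.91% of all genes in that direction, and above them for Nfe2 (7.68% of all genes). Among the members tested the median log2 fold change was -1.99, beside -0.01 over all genes.

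**Figure D1:**
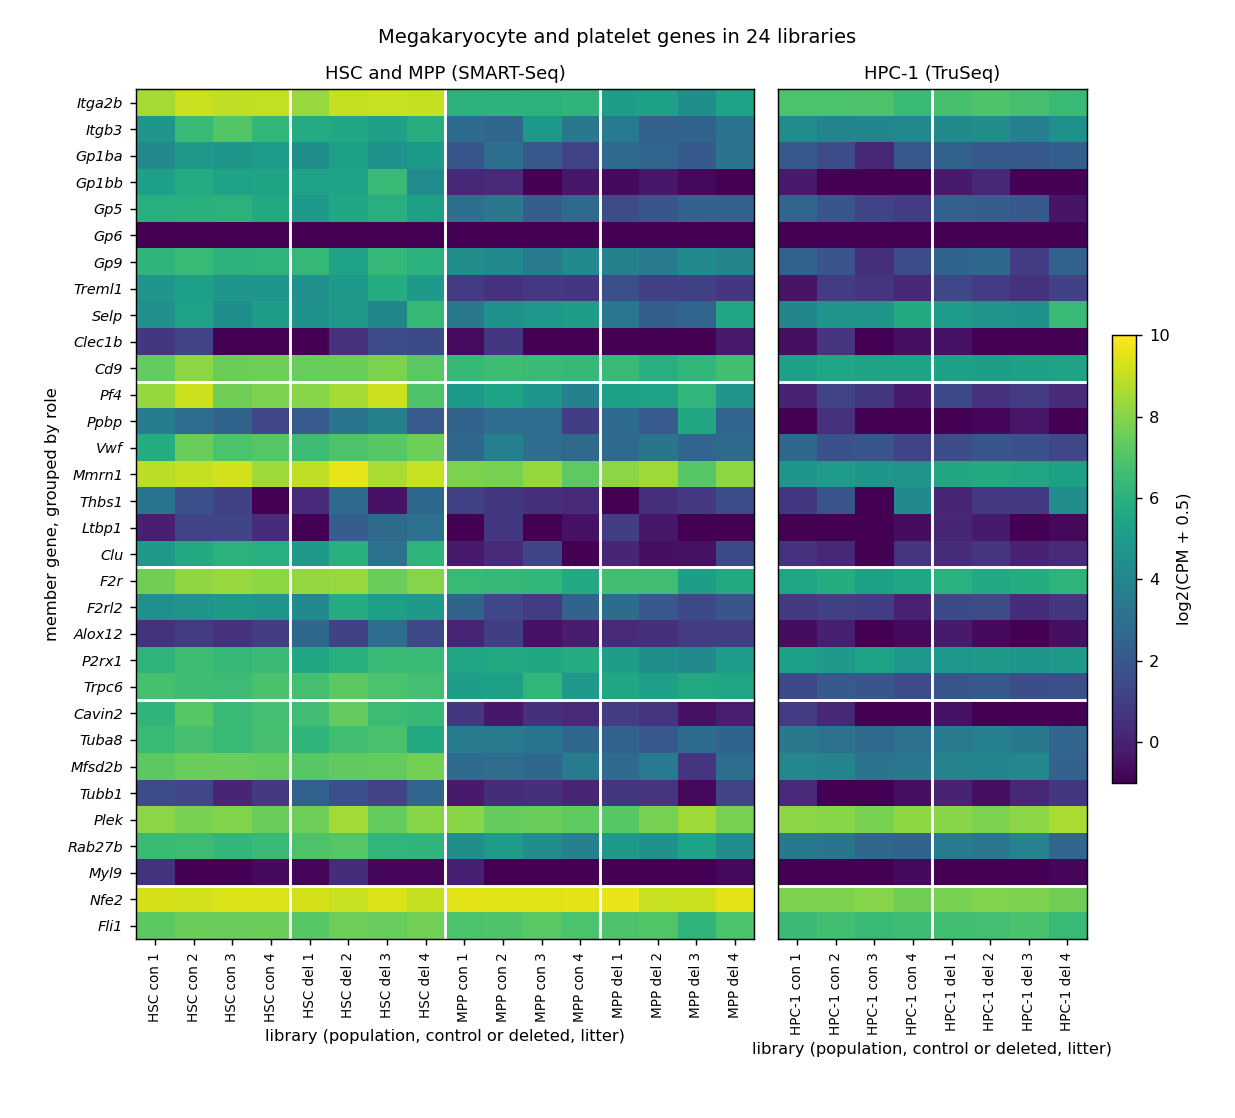
Level of each member gene (rows, grouped by role) in each of the 24 libraries (columns, by population, control or deleted, and litter), as log2(CPM + 0.5) on the colour scale; HPC-1 has its own panel because its kit differs. Itga2b, Pf4, Mmrn1 and Nfe2 are among the rows that are bright in every HSC library, and Gp6 is at 0 counts in all 24.

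Adhesion receptors made up 11 of the members, and 8 of them fell from HSC to MPP in controls. Itga2b, the alpha-IIb chain of the fibrinogen receptor (Entrez gene 16399, chromosome 11, 102453297 to 102469883 on GRCm38), was at 370.3, 553, 499 and 509 CPM in control HSC (litters 1 to 4) and at 67.4, 68.3, 66.3 and 73.8 CPM in control MPP. The groups did not overlap, and MPP was lower throughout (log2 fold change -2.81 ± 0.14, SE, edgeR adjusted p = 1.83e-07). Its partner Itgb3 spanned 27.0 to 132 CPM in HSC and 5.73 to 28.7 in MPP, so the groups overlapped, and it passed by a narrow margin (log2 fold change -2.64 ± 0.65, SE, edgeR adjusted p = 0.0417). Leaving out 1 control library ended that call in 6 of 8 fits, with adjusted p from 0.0537 to 0.105.

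All 4 subunits of the von Willebrand factor receptor fell. Gp5, cleaved by thrombin on the platelet surface, was at 60.0, 62.4, 65.8 and 50.9 CPM in control HSC and 7.72, 9.70, 4.51 and 6.29 CPM in control MPP (log2 fold change -3.10 ± 0.23, SE, edgeR adjusted p = 7.8e-06). Gp9 was at 72.9, 85.2, 66.0 and 69.8 CPM in HSC and 20.8, 18.5, 11.3 and 18.7 in MPP, a smaller difference (log2 fold change -2.09 ± 0.20, SE, edgeR adjusted p = 4.48e-05). The beta chain Gp1bb stood out for its low level in MPP: its counts were 419 to 631 per library in HSC and 0 to 11 in MPP, where the 4 libraries held 25 counts in all. Its mean CPM was 99.2-fold higher in HSC, and the fit gave the same direction (log2 fold change -6.72 ± 0.51, SE, edgeR adjusted p = 8.08e-06). Gp1ba, which binds von Willebrand factor itself, went from 26.8 ± 6.44 to 4.15 ± 2.51 CPM (SD, n = 4; log2 fold change -2.70 ± 0.38, SE, edgeR adjusted p = 0.000693). Gp1bb overlaps Septin5 on the genome and SMART-Seq does not mark the strand. Septin5 was at -1.04 ± 0.64 on the log2 scale (adjusted p = 0.379), and its part in the Gp1bb counts was not tested.

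Treml1, an alpha-granule receptor placed on the surface of activated platelets, had 26.3, 36.1, 27.8 and 25.8 CPM in HSC and 1.41, 0.993, 1.28 and 1.15 CPM in MPP, so every HSC library was far above every MPP library (log2 fold change -4.58 ± 0.25, SE, edgeR adjusted p = 3.78e-07). The tetraspanin Cd9 fell less, from 205 ± 49.4 to 87.6 ± 6.54 CPM (log2 fold change -1.23 ± 0.16, SE, edgeR adjusted p = 0.000383). Selp, the P-selectin of platelet and endothelial granules, overlapped between the populations at 21.6 to 39.9 CPM in HSC and 10.2 to 34.2 in MPP (adjusted p = 0.667). Clec1b, the podoplanin receptor, which overlaps Clec12b, reached at most 1.81 CPM in control HSC and 1.15 in control MPP. Gp6, the collagen receptor of platelets, had no count in any of the 24 libraries.

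Of the 7 granule and secreted proteins 4 fell. Vwf, the adhesive multimer that the complex binds, was at 56.0, 179.8, 116 and 137 CPM in control HSC and 5.82, 12.99, 7.38 and 6.52 CPM in control MPP (log2 fold change -3.91 ± 0.37, SE, edgeR adjusted p = 9.1e-05). Clu, the secreted chaperone clusterin, was at 29.2, 51.8, 67.4 and 61.3 CPM in HSC and 0.367, 0.764, 1.96 and 0 CPM in MPP, 1 MPP library having no count, and its mean was 67.8-fold higher in HSC (log2 fold change -5.94 ± 0.63, SE, edgeR adjusted p = 0.000287). Pf4, the chemokine platelet factor 4, ran from 196 to 580.0 CPM in HSC and 13.9 to 41.5 in MPP (log2 fold change -3.52 ± 0.43, SE, edgeR adjusted p = 0.00114). Mmrn1, the factor V binding protein multimerin 1, fell by less than these and kept 226 ± 64.1 CPM in MPP (log2 fold change -1.11 ± 0.21, SE, edgeR adjusted p = 0.0048). Ppbp, which lies beside Pf4 on chromosome 5 and encodes another platelet chemokine, behaved differently: at 2.01 to 11.8 CPM in HSC and 1.54 to 7.11 in MPP its groups overlapped, and it did not pass (log2 fold change -0.35 ± 0.54, SE, edgeR adjusted p = 0.774). Thbs1 and Ltbp1, the genes of thrombospondin 1 and a latent TGF-beta binding protein, did not pass either, with means of at most 3.43 CPM in control HSC.

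Among 5 agonist receptors, channels and enzymes, 4 fell. F2r, the thrombin receptor PAR1, was at 197, 291, 314 and 283 CPM in control HSC and 84.0, 81.7, 77.6 and 49.0 CPM in control MPP (log2 fold change -1.90 ± 0.19, SE, edgeR adjusted p = 6.56e-05), and no MPP library reached the lowest HSC library. Its relative F2rl2 (PAR3), which neighbours it on chromosome 13 and overlaps Iqgap2, fell further, by 2.94 on the log2 scale from 26.5 ± 3.53 to 3.48 ± 2.06 CPM (edgeR adjusted p = 0.000486). The ATP-gated channel P2rx1 (83.8 ± 10.2 to 49.1 ± 4.596 CPM, log2 fold change -0.78 ± 0.14, SE, edgeR adjusted p = 0.00342) and the calcium channel Trpc6 (103 ± 11.2 to 44.5 ± 20.4 CPM, log2 fold change -1.22 ± 0.24, SE, edgeR adjusted p = 0.00613) fell by smaller amounts. Alox12, a platelet lipoxygenase, was low in both populations, at 0.966 to 1.51 CPM and 0.228 to 1.53 CPM.

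The cytoskeletal, signalling and vesicle genes ranged from Cavin2, nearly without counts in MPP, to genes that did not pass. Cavin2, a coat protein of caveolae, was at 72.4, 143, 85.5 and 104 CPM in control HSC and 1.16, 0.306, 0.912 and 0.768 CPM in control MPP. The 4 MPP libraries held 53 counts in all, and the ratio of the means was 129-fold (log2 fold change -6.96 ± 0.33, SE, edgeR adjusted p = 1.5e-07). Mfsd2b, the sphingosine 1-phosphate exporter of red cells and platelets, was at 148, 184, 181 and 168 CPM in HSC and 6.74, 7.18, 5.97 and 11.5 CPM in MPP (log2 fold change -4.46 ± 0.21, SE, edgeR adjusted p = 1.5e-07). Both genes separated the populations in every library.

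Tuba8, an alpha tubulin of the platelet cytoskeleton, had 86.6, 108, 86.8 and 108 CPM in HSC and 10.6, 11.2, 9.07 and 5.83 CPM in MPP (log2 fold change -3.41 ± 0.21, SE, edgeR adjusted p = 1.22e-06). Rab27b, a GTPase of platelet dense granules, had 91.2, 91.96, 78.5 and 87.7 CPM in HSC and 21.4, 32.5, 21.4 and 13.2 CPM in MPP (log2 fold change -1.99 ± 0.22, SE, edgeR adjusted p = 0.000174). Again no libraries of the 2 populations overlapped. Plek (pleckstrin, a protein kinase C substrate) was instead abundant in both, at 229 ± 38.0 and 193 ± 47.4 CPM (adjusted p = 0.44), and the late platelet tubulin Tubb1 was scarce in both, at 1.603 ± 0.785 and 0.695 ± 0.261 CPM (adjusted p = 0.293). Myl9, a myosin light chain, had 16 counts over the 4 control HSC libraries and 8 over the 4 control MPP libraries.

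The 2 transcription factors of the set differed from each other. Nfe2, needed for platelet release, was at 625, 603, 657 and 674 CPM in control HSC and 731, 698, 697 and 738 CPM in control MPP, all MPP libraries being the higher, yet it did not pass (log2 fold change 0.16 ± 0.10, SE, edgeR adjusted p = 0.421). The ETS factor Fli1 fell by 0.47 on the log2 scale, from 174 ± 16.8 to 126 ± 13.3 CPM (edgeR adjusted p = 0.0292), and lost its call in 6 of 8 fits that left out 1 library (adjusted p 0.0664 to 0.109).

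**Figure D2:**
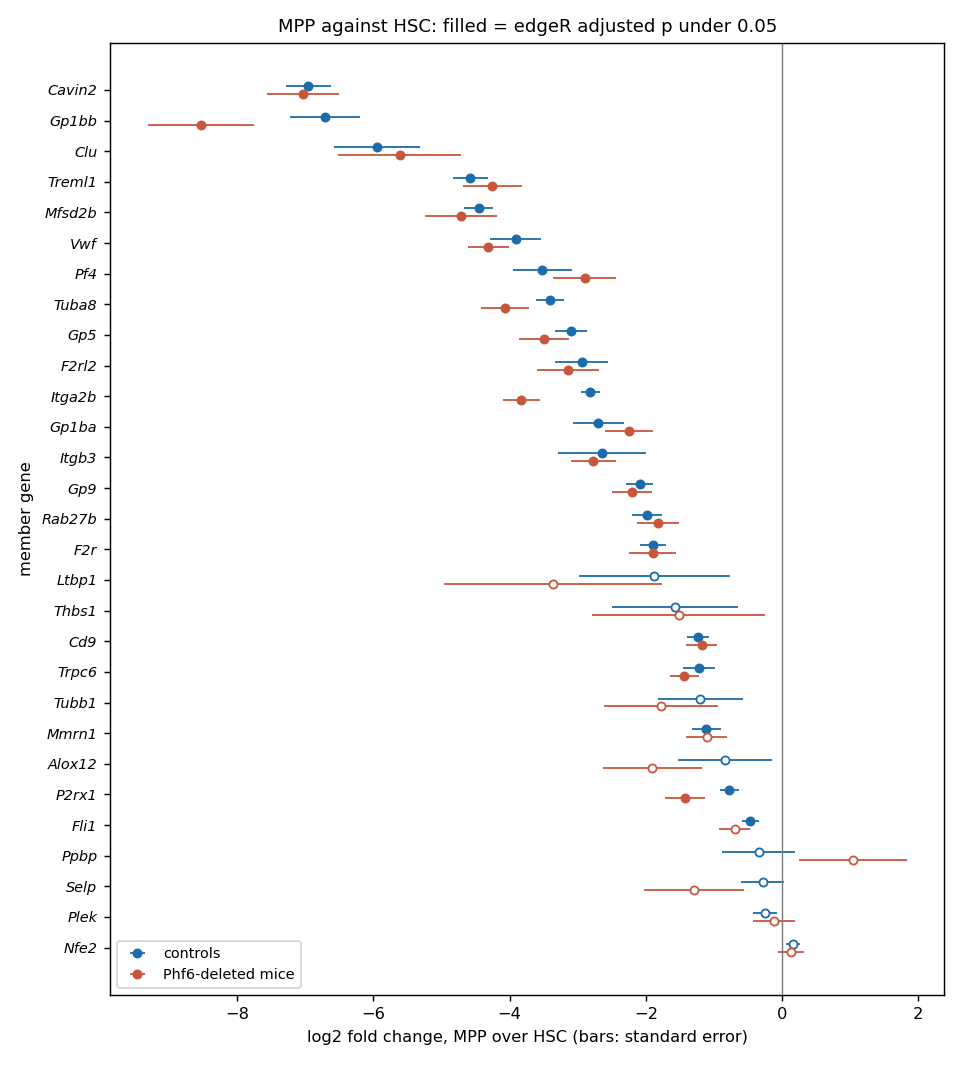
Log2 fold change of MPP over HSC (horizontal axis, bars for the standard error) for the 29 members tested, in controls (blue) and Phf6-deleted mice (red), filled where edgeR's adjusted p is under 0.05. Members run from Cavin2 at -6.96 in controls to Nfe2 at 0.16, and 19 are filled in both colours.

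Per kilobase of gene (RPKM, the scale used here to order the members by level), Pf4 was the most abundant member in control HSC at 555 ± 298, ahead of Nfe2 at 383 ± 19.0 with overlapping spreads. Cd9 (172 ± 41.5) and Itga2b (141 ± 22.9) followed within each other's spread, then Mmrn1 (105 ± 24.1), Gp9 (90.6 ± 10.3) and F2r (82.3 ± 15.6), neighbours that also lay within their spreads. The order differed in control MPP. There Nfe2 stood alone at 429 ± 12.8 RPKM, and the next members were Cd9 at 73.5 ± 5.48, Mmrn1 at 48.7 ± 13.8, Pf4 at 48.5 ± 19.5 and Plek at 46.9 ± 11.5. Within the glycoprotein complex the RPKM levels in control HSC were unequal, Gp9 (90.6 ± 10.3) lying above Gp5 (27.3 ± 2.92) and Gp1bb (20.8 ± 3.74), and Gp1ba lowest at 9.82 ± 2.36. In control MPP Gp9 was again highest at 21.4 ± 5.15 RPKM and Gp1bb was now lowest at 0.21 ± 0.17. In HPC-1 controls, read only within that kit, Nfe2 (138 ± 14.6 RPKM) and Plek (62.9 ± 6.07) led, followed by Cd9, Itga2b and Fli1 at 33.8 ± 2.48, 32.5 ± 4.76 and 30.1 ± 2.38 RPKM, which did not differ beyond their spread. Pf4 there was at 0.381 to 1.92 CPM and Gp1bb at 0 in 3 of 4 libraries.

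**Figure D3:**
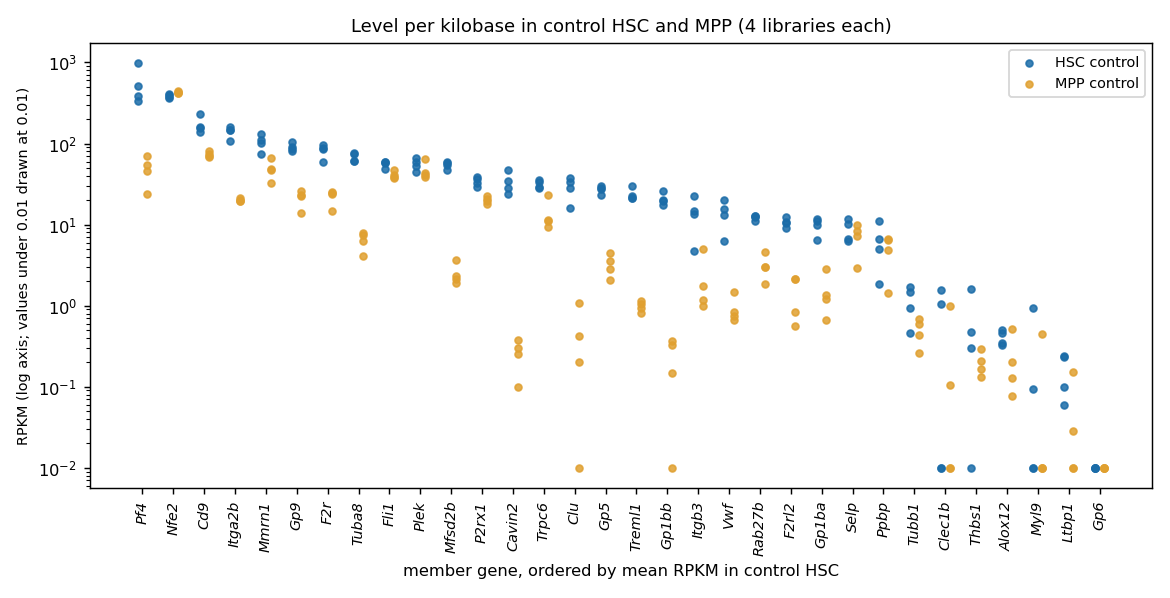
RPKM on a log axis (vertical; values under 0.01 are drawn at 0.01) of each member in the 4 control HSC (blue) and 4 control MPP (orange) libraries, ordered by mean RPKM in control HSC. Blue points lie above orange ones without overlap for 20 members; Nfe2 is the member whose 4 orange points all lie above the blue.

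Other genes of the pathway were counted from 2 lists fixed by name. Of 26 regulators of megakaryocytes and their signalling, 7 fell from HSC to MPP in controls and 3 rose (edgeR), beside 4.78% and 4.06% of all genes tested. Gata1, the erythroid and megakaryocyte factor, fell from 118 ± 23.8 to 11.1 ± 3.50 CPM (log2 fold change -3.41 ± 0.25, SE, adjusted p = 5.94e-06) and its partner Gfi1b from 218 ± 26.8 to 57.5 ± 10.6 CPM (-1.93 ± 0.16, adjusted p = 1.34e-05). Gata2, Zfpm1, Tal1, Mef2c and Zbtb16 fell by 0.56 to 1.04 on the log2 scale, and Lmo2, Stat3 and Sh2b3 rose by 0.45 to 0.56. Of 50 further platelet receptor, signalling and granule genes, 49 were found, 9 fell and 0 rose, beside the same shares. Those that fell included the ADP receptor P2ry1 (-3.26 ± 0.34, adjusted p = 9.17e-05), the protease inhibitor Serpine2 (-2.44 ± 0.45, adjusted p = 0.00434) and the small GTPase Rap1b (-1.08 ± 0.13, adjusted p = 0.000299). The list medians were -0.20 and -0.15, beside -0.01 over all genes.

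Summed over 9 markers of mature platelets and megakaryocytes, all of them members and with Gp6 at 0, the level spanned 430 to 857 CPM in control HSC and 44.4 to 87.0 in control MPP. The largest part was Pf4, at 326.2 ± 175.1 and 28.5 ± 11.45 CPM (SD, n = 4), and Ppbp and Tubb1 of this list did not pass between the populations. Of the other cell types tracked, 14 endothelial and stromal markers summed to 37.2 to 269 CPM in control HSC and 65.9 to 91.8 in control MPP, the high value being 1 HSC library with 218 CPM of Col1a1. Of this list Cdh5 was at 0 in every HSC and MPP library, while Emcn spanned 19.8 to 38.4 CPM in control HSC and 34.3 to 53.8 in control MPP. Kdr was at 4.44 ± 2.14 CPM in control HSC and 0.85 ± 0.743 in control MPP, and Cldn5 at 2.92 ± 3.60 and 1.52 ± 0.531 CPM (SD, n = 4). Basophil and mast cell markers (9, with Cma1 and Tpsb2 at 0 in control HSC and Gzmb at 0 in control MPP) summed to 442 to 563 CPM in control HSC and 249 to 327.5 in control MPP, most of it Gata2 at 486 ± 50.7 and 256 ± 31.6 CPM, which is also one of the regulators that fell. The sum of 10 B lineage markers (Ebf1 and Pax5 at 0) was 39.0 to 73.5 CPM in control HSC and 86.3 to 155 in control MPP, without overlap. Erythroid markers, 12 of 13 found, summed to 1968 to 2239 CPM in control HSC and 1437 to 2224 in control MPP. Most of this was Car2, at 1882 ± 197.5 and 1592 ± 309 CPM. Sums of 9 T and NK markers (137 to 182 and 138.5 to 215 CPM) overlapped. They were mostly Nkg7, at 150 ± 21.3 and 158 ± 35.4 CPM, with Cd3e, Cd3g, Cd8a and Ncr1 at 0 in both groups. Those of 15 neutrophil and monocyte markers (1110.0 to 8307 and 624 to 3451 CPM) overlapped too. The part of these levels in the differences between populations was not tested.

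The same comparison within the Phf6-deleted mice rests on other animals and shares no library with the controls. There 19 of the 32 members fell from HSC to MPP and 0 rose (edgeR), against 1.41% of 13887 genes in either direction, 0.771% in the lower one and 0.641% in the higher. Of the 29 tested, Gp1bb, Cavin2 and Clu, all counted in the 19, and Tubb1 passed the filter through their HSC libraries alone. All 19 were among the 21 of the controls; Mmrn1 (adjusted p = 0.0972) and Fli1 (adjusted p = 0.163) were the 2 that did not pass. For 22 members the groups did not overlap and MPP was lower, as for 5.72% of all genes, and for 0 members MPP was the higher (5.96% of genes). The median log2 fold change of the members tested was -2.20, beside 0.02 over all genes. Across the 29 members tested in both, the log2 fold changes of the 2 genotypes had a Pearson correlation of 0.952. It was 0.683 over 13437 genes, a description over genes that share libraries within each genotype. The value for the members also reflects their wide range, with Gp1bb, Cavin2 and Clu lowest in both genotypes. The 2 correlations are therefore not a like comparison and do not show that the members are more reproducible than other genes.

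Vwf was at 93.1, 120.1, 141 and 188 CPM in deleted HSC and 6.36, 9.32, 5.57 and 6.41 CPM in deleted MPP (log2 fold change -4.31 ± 0.30, SE, edgeR adjusted p = 0.000163). Itga2b was at 318, 525, 543 and 518 CPM in HSC and 35.2, 38.4, 22.1 and 40.6 CPM in MPP (log2 fold change -3.83 ± 0.28, SE, edgeR adjusted p = 0.000163). In both genes every MPP library was far below every HSC library. Cavin2 was at 98.3, 161, 93.1 and 81.6 CPM in HSC and 1.51, 1.06, 0.195 and 0.452 CPM in MPP (log2 fold change -7.03 ± 0.53, SE, edgeR adjusted p = 0.000163). Gp1bb was at 40.3, 41.5, 86.2 and 19.3 CPM in HSC and 0.104, 0.313, 0.0976 and 0 CPM in MPP (log2 fold change -8.53 ± 0.78, SE, edgeR adjusted p = 0.000655). Its 4 MPP libraries held 8 counts in all, and the mean CPM was 364-fold higher in HSC.

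Of the other subunits, Gp5 was at 30.01, 48.5, 60.0 and 37.4 CPM in deleted HSC and 2.40, 3.31, 4.98 and 5.15 in deleted MPP (log2 fold change -3.50 ± 0.37, SE, edgeR adjusted p = 0.00195). Gp9 was at 80.6, 40.1, 78.7 and 65.3 CPM in HSC and 13.9, 10.6, 18.0 and 15.8 in MPP (log2 fold change -2.20 ± 0.30, SE, edgeR adjusted p = 0.00706). The complex thus separated the populations in the deleted mice too, with Gp1ba at 28.7 ± 7.18 and 6.14 ± 2.08 CPM (log2 fold change -2.24 ± 0.35, SE, edgeR adjusted p = 0.0132). Itgb3, whose control libraries overlapped, did not overlap here, at 53.9, 47.7, 39.2 and 57.1 CPM in HSC and 10.7, 4.69, 5.37 and 8.53 CPM in MPP (log2 fold change -2.77 ± 0.33, SE, edgeR adjusted p = 0.00366).

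Treml1 was at 22.8, 30.4, 56.0 and 29.6 CPM in deleted HSC and 2.76, 1.63, 1.76 and 1.22 CPM in deleted MPP (log2 fold change -4.25 ± 0.43, SE, edgeR adjusted p = 0.00136). Tuba8 was at 72.4, 102, 115 and 51.0 CPM in HSC and 4.80, 3.63, 6.93 and 5.33 CPM in MPP (log2 fold change -4.07 ± 0.35, SE, edgeR adjusted p = 0.000466). For the transporter Mfsd2b the MPP values of 6.63, 10.8, 1.07 and 7.41 CPM lay far under 142, 157, 167 and 210.1 CPM in HSC (log2 fold change -4.71 ± 0.52, SE, edgeR adjusted p = 0.00248). These 3 genes had no overlap either. The receptor F2rl2 was at 18.5, 54.4, 36.6 and 30.02 CPM in HSC and 6.99, 3.44, 2.25 and 3.25 CPM in MPP (log2 fold change -3.15 ± 0.46, SE, edgeR adjusted p = 0.0101). The channel Trpc6 was at 104, 151, 117 and 104 CPM in HSC and 48.2, 36.6, 50.7 and 43.5 CPM in MPP (log2 fold change -1.43 ± 0.22, SE, edgeR adjusted p = 0.0112), and again every HSC library was the higher.

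The remaining members that fell in the deleted mice were Pf4, Rab27b, F2r, Cd9, P2rx1 and Clu, with adjusted p between 0.0145 and 0.0419. Their calls are the less stable ones: leaving out the HSC library of the deleted mouse of litter 2 left 12 members past the threshold in place of 19, ending the calls of these 6 and of Gp1ba, all still negative. P2rx1 lost its call in each of the 8 fits that left out 1 library (adjusted p 0.0558 to 0.118), and Cd9 in 6 of them (0.0523 to 0.0956). Without the MPP library of litter 3, 18 members passed. With the mouse as a replicate block, P2rx1 missed the threshold (adjusted p = 0.0646) and Mmrn1 passed it (-1.14 on the log2 scale, adjusted p = 0.0276), as it did in DESeq2 (adjusted p = 0.00976). Ppbp had the highest estimate of the members, 1.04 ± 0.79 on the log2 scale (adjusted p = 0.589), with 6.78, 4.00, 47.1 and 5.55 CPM in the deleted MPP libraries, the high value being that of litter 3. Among the regulators 3 of 26 fell (Gata1, -3.16 ± 0.39, adjusted p = 0.00466; Gfi1b, -2.33 ± 0.31, adjusted p = 0.00706; Gata2, -0.95 ± 0.18, adjusted p = 0.0308) and of the further platelet genes 2 of 50 (Serpine2 and Rap1b), beside the 0.771% of all genes that fell.

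Deletion of Phf6 itself was then compared with control within each population, the question the 2 genotypes put. In HSC 0 of 32 members passed the threshold in edgeR (30 tested), where 0.0073% of 13693 genes did, all of them lower. In MPP 0 members passed (27 tested), beside 0.029% of 13806 genes, 0.0217% higher and 0.00724% lower. In HPC-1 0 members passed (24 tested), beside 0.0647% of 13907 genes, 0.0288% higher and 0.036% lower. All 4 deleted libraries lay above all 4 controls for 1 member in HSC and 1 in HPC-1, as for 1.57% and 1.58% of genes, and for 0 in MPP (2.96% of genes). They lay below for 2 members in MPP, as for 2.78% of genes, and for 0 in HSC and HPC-1 (1.59% and 2.08% of genes). Where a member is said below to agree in all 4 litters, the share of all genes that did so was not counted. At an unadjusted p under 0.05 there were 1, 3 and 2 members, of 528, 1117 and 694 genes in all. DESeq2 called 0, 1 and 1 members, and limma-voom 0 in each. The median log2 difference of the members tested was 0.10 (HSC), 0.00173 (MPP) and 0.17 (HPC-1), and 0.00632, 0.02 and -0.00374 over all genes. Tubb1 in HSC and Alox12 in MPP passed the filter on low counts through the deleted libraries alone. So did Pf4, Treml1, Thbs1 and Clu in HPC-1, while Thbs1 in MPP and Gp5 in HPC-1 passed through the controls alone. The medians include these members and are no support for a direction.

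**Figure D4:**
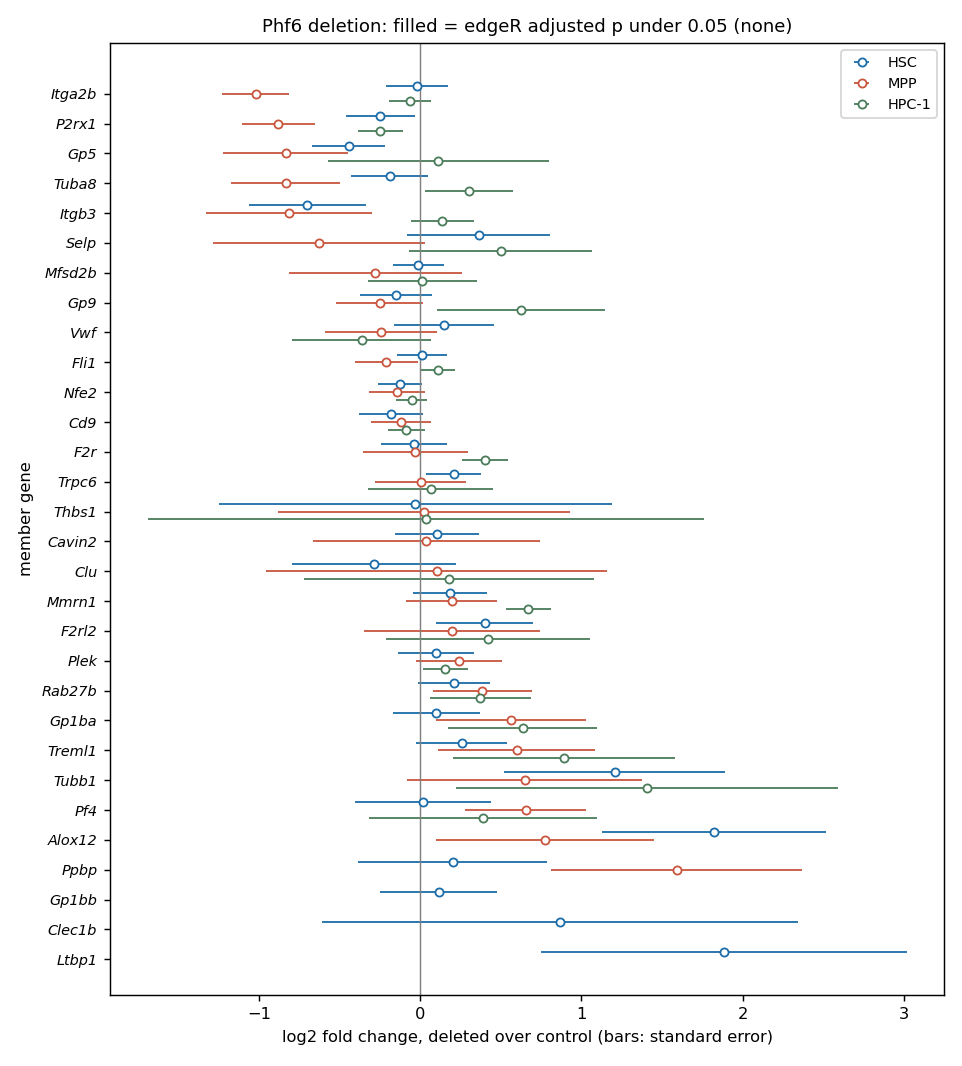
Log2 fold change of deleted over control (horizontal axis, bars for the standard error) for each member tested in HSC (blue), MPP (red) and HPC-1 (green), ordered by the value in MPP; open circles throughout mean that no edgeR adjusted p is under 0.05. Itga2b in MPP at -1.02 and Mmrn1 in HPC-1 at 0.67 have the lowest unadjusted p of their populations.

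In HSC the 4 members with the lowest unadjusted p were Alox12, Gp5, Itgb3 and Tubb1. Alox12 was at 1.03, 1.38, 0.966 and 1.51 CPM in the controls of litters 1 to 4 and 6.07, 1.73, 7.34 and 2.14 CPM in their deleted littermates, higher in 4 of 4 litters with no overlap (log2 fold change 1.82 ± 0.70, SE, edgeR adjusted p = 0.998, unadjusted p = 0.0227). Gp5 was at 60.0, 62.4, 65.8 and 50.9 CPM in controls and 30.01, 48.5, 60.0 and 37.4 CPM in deleted mice, lower in 4 of 4 litters with overlap (log2 fold change -0.44 ± 0.23, SE, edgeR adjusted p = 0.998). Itgb3 was at 27.0, 85.2, 132 and 77.9 CPM in controls and 53.9, 47.7, 39.2 and 57.1 CPM in deleted mice, lower in 3 of 4 litters (log2 fold change -0.70 ± 0.36, SE, edgeR adjusted p = 0.998). The scarce tubulin Tubb1 was at 2.39, 2.07, 0.644 and 1.31 CPM in controls and 4.76, 2.74, 1.87 and 5.42 CPM in deleted mice, with overlap (log2 fold change 1.21 ± 0.68, SE, edgeR adjusted p = 0.998). Tubb1 passed the filter on low counts through the deleted libraries alone, where it was high, so its place among the 4 is no support for a difference.

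Several abundant members were nearly level between the genotypes in HSC. The log2 differences of Itga2b (-0.02 ± 0.19), Mfsd2b (-0.01 ± 0.16), Fli1 (0.01 ± 0.15) and Pf4 (0.02 ± 0.42) were all smaller than their standard errors. Slamf1, the CD150 gene used in the sort, was at -0.89 ± 0.41 in deleted against control HSC (edgeR adjusted p = 0.998). Erythroid markers summed to 1055 to 1767 CPM in deleted HSC and 1968 to 2239 in controls, most of it a single gene, Car2, at 1215 ± 283.5 and 1882 ± 197.5 CPM, and platelet and megakaryocyte markers summed to 319 to 887 CPM, overlapping the control range of 430 to 857. The part of these levels in the values of deleted HSC was not tested.

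In MPP the lowest unadjusted p belonged to Itga2b. It was at 67.4, 68.3, 66.3 and 73.8 CPM in the controls (litters 1 to 4), while the deleted mice had 35.2, 38.4, 22.1 and 40.6 CPM. Every deleted library lay below every control library, and the level was lower in 4 of 4 litters. The log2 fold change was -1.02 ± 0.21 (SE, n = 4 and 4), with an unadjusted p of 0.000445 and an edgeR adjusted p of 0.214, which did not pass. It passed in DESeq2 (-1.01, adjusted p = 0.00149) and in edgeR without the MPP library of the deleted mouse of litter 3 (-0.86, adjusted p = 0.0418), while the other 7 fits that left out 1 library gave adjusted p from 0.254 to 0.675, and limma-voom gave 0.198. That library of litter 3 held the lowest Itga2b value.

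P2rx1, the channel, was at 43.5, 51.0, 47.8 and 54.3 CPM in control MPP and 34.2, 21.6, 18.6 and 32.6 CPM in deleted MPP, also without overlap and lower in 4 of 4 litters (log2 fold change -0.88 ± 0.23, SE, edgeR adjusted p = 0.501). Tuba8 was at 10.6, 11.2, 9.07 and 5.83 CPM in controls and 4.80, 3.63, 6.93 and 5.33 CPM in deleted mice, with overlap (log2 fold change -0.83 ± 0.34, SE, edgeR adjusted p = 0.609). Gp5 was at 7.72, 9.70, 4.51 and 6.29 CPM in controls and 2.40, 3.31, 4.98 and 5.15 CPM in deleted mice, with overlap (log2 fold change -0.84 ± 0.39, SE, edgeR adjusted p = 0.617). None of the 3 passed in edgeR, and over the alternatives the adjusted p of P2rx1 ran from 0.0549 in DESeq2 to 0.894. Neutrophil and monocyte markers summed to 624 to 3451 CPM in control MPP and 1749 to 14700.0 in deleted MPP, the highest in litter 4, and platelet and megakaryocyte markers to 44.4 to 87.0 and 64.3 to 151 CPM, the highest in litter 3. Their part in these values was not tested.

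In HPC-1 the member with the lowest unadjusted p was Mmrn1, at 27.7, 33.5, 27.5 and 25.0 CPM in controls and 46.5, 52.5, 45.0 and 37.2 CPM in deleted mice. It was higher in 4 of 4 litters without overlap (log2 fold change 0.67 ± 0.14, SE, edgeR adjusted p = 0.123). It passed with the litter as a replicate block (0.67, adjusted p = 0.015) and in DESeq2 (0.68, adjusted p = 0.0049), and the other alternatives gave adjusted p from 0.0513 to 0.549. In HSC and MPP its log2 differences were 0.19 ± 0.23 and 0.20 ± 0.28, with overlapping groups. F2r was at 44.0, 54.8, 38.0 and 43.8 CPM in controls and 63.7, 49.3, 55.0 and 70.5 CPM in deleted mice in HPC-1, higher in 3 of 4 litters with overlap (log2 fold change 0.40 ± 0.14, SE, edgeR adjusted p = 0.77). P2rx1 was at 37.0, 30.4, 40.7 and 28.4 CPM in controls and 28.3, 29.1, 28.1 and 29.4 CPM in deleted mice, lower in 3 of 4 litters (log2 fold change -0.25 ± 0.14, SE, edgeR adjusted p = 0.999). Gp1ba was at 3.89, 2.48, 0.706 and 3.77 CPM in controls and 5.24, 3.71, 3.67 and 4.32 CPM in deleted mice, higher in 4 of 4 litters with overlap (log2 fold change 0.63 ± 0.46, SE, edgeR adjusted p = 0.999). The sums of all 7 marker lists overlapped between deleted and control HPC-1, among them the platelet and megakaryocyte markers at 12.3 to 20.5 and 5.70 to 16.3 CPM and the endothelial and stromal markers at 153 to 179.7 and 135 to 158 CPM. Single markers that did not overlap, chosen after their values were seen, included Plvap (3.09 to 5.13 CPM in deleted and at most 2.24 in control mice), Gzmb (3.93 to 8.25 and at most 1.86) and Emcn (7.36 to 14.2 and 15.4 to 22.8). Their part in the values of deleted HPC-1 was not tested.

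**Figure D5:**
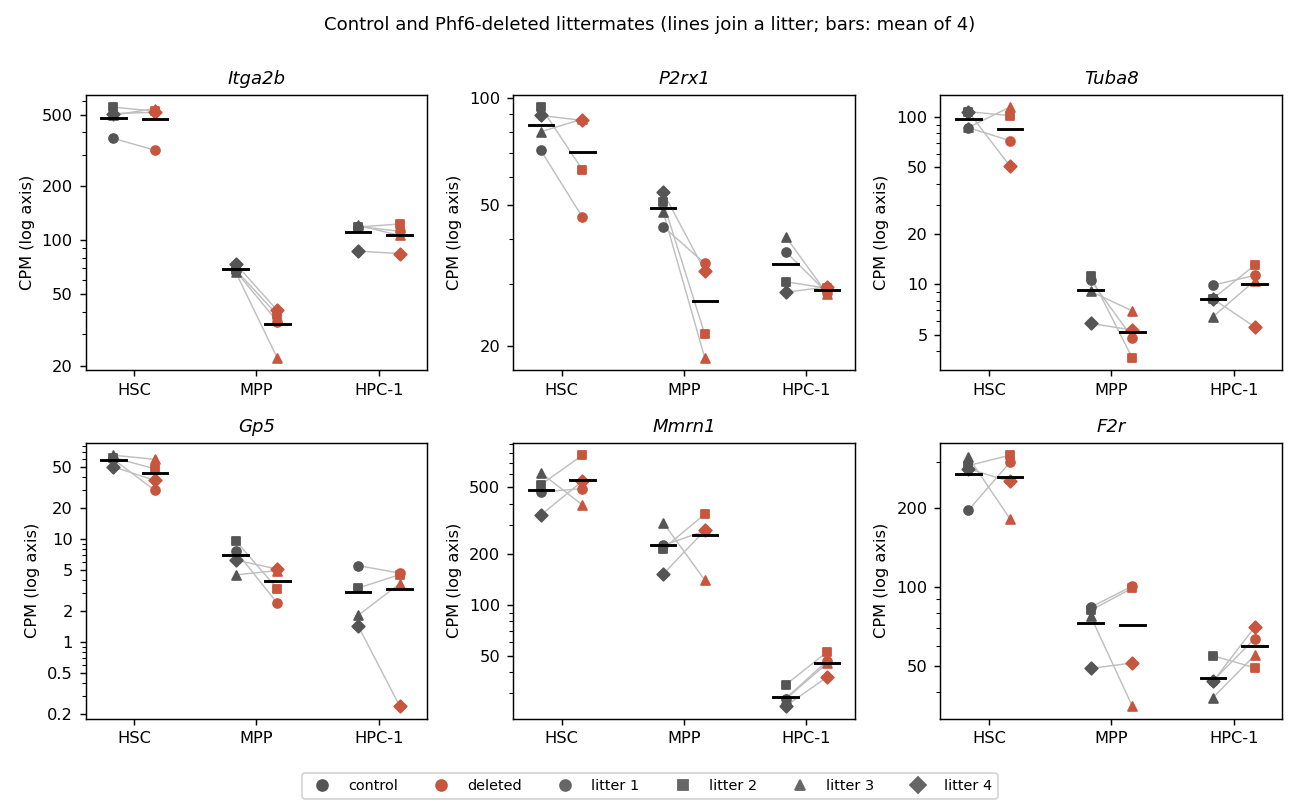
CPM on a log axis of 6 members in control (grey) and Phf6-deleted (red) littermates of each population, lines joining a litter and bars marking the mean of 4. The 4 deleted MPP libraries of Itga2b lie at 22.1 to 40.6, below the controls at 66.3 to 73.8; HPC-1 was made with another kit, so its height is not comparable with HSC and MPP.

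The deletion effects of the populations were also tested against each other, and 0 genes passed in each of the 3 tests (0% of 14561, 14970 and 14909 genes). Unadjusted p under 0.05 was reached by 1, 1 and 3 members for MPP against HSC, HPC-1 against HSC and HPC-1 against MPP, of 417, 518 and 668 genes. DESeq2 passed 2, 11 and 7 genes in these tests, with 0 members among them, and limma-voom 0. For Itga2b the effect in MPP minus that in HSC was -0.99 ± 0.28 (unadjusted p = 0.00259, edgeR adjusted p = 1) and that in HPC-1 minus MPP was 0.95 ± 0.24 (unadjusted p = 0.00109, adjusted p = 0.915). The other members under an unadjusted p of 0.05 were Cavin2 in HPC-1 minus HSC (-3.10 ± 1.33, adjusted p = 1) and, in HPC-1 minus MPP, Tuba8 (1.13 ± 0.44) and P2rx1 (0.62 ± 0.27, adjusted p = 0.915 for each). Each fit took 16 libraries of 8 mice as independent, with no term for the mouse, so its standard errors and p-values ignore that pairing. With the mouse as a block no member's call changed. These tests share libraries with each other and with the comparisons above.

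Averaged over the 3 populations of each mouse (limma on 8 mice, 12843 genes), 0 members passed beside 0.101% of genes (0.0779% higher and 0.0234% lower), and 3 of the 24 members tested had an unadjusted p under 0.05, as did 1142 genes. P2rx1 was lower in 4 of 4 litters without overlap, as for 2.99% of genes (-0.47 ± 0.12 on the log2 scale, unadjusted p = 0.00159, limma adjusted p = 0.221), and Itga2b likewise (-0.38 ± 0.11, adjusted p = 0.316). Gp1ba (0.54 ± 0.25, adjusted p = 0.551) and Treml1 (0.56 ± 0.27, adjusted p = 0.572) were higher in 4 of 4 litters, Treml1 without overlap (2.44% of genes in that direction). In HPC-1 Treml1 passed the filter on low counts through the deleted libraries alone. Of the 26 regulators 25 were tested for deletion in each of HSC, MPP and HPC-1, and 0 passed in edgeR (2, 3 and 0 at an unadjusted p under 0.05). Of the 50 further platelet genes 46, 46 and 47 were tested, and 0 passed as well (1, 4 and 5). Over all genes, 528 of 13693, 1117 of 13806 and 694 of 13907 had an unadjusted edgeR p under 0.05.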

How the data were processed

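RNA from sorted HSC, MPP and HPC-1 was sequenced as 80 bp read pairs on a NextSeq, and the authors deposited whole-number read counts per gene. Per the submitters' processing notes, bcl2fastq and featureCounts were used with build mm10; not given in the sources used here are the aligner, annotation, versions and strandedness. Per the labels, mature lineage cells were depleted (CD3, B220, GR1, TER119) and cells sorted on cKIT, SCA1, CD150 and CD48.

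Of the 27179 Entrez identifiers 25275 were named from RefSeq. Genes were kept with edgeR's filterByExpr (minimum count 10, minimum total 15), scaled by TMM within each comparison, and tested with edgeR's robust quasi-likelihood test (edgeR 4.0.16, limma 3.58.1, R 4.3.3), p-values being adjusted over all genes by Benjamini-Hochberg (threshold 0.05). The average over populations used limma on each mouse's mean log2 CPM (prior count 2). For levels, the 16 SMART-Seq libraries were scaled together and the 8 TruSeq libraries apart; RPKM divides CPM by the deposited gene length in kilobases. DESeq2 1.42.0, limma-voom, other size factors, no filter, a replicate block and leaving out each library were alternatives. The procedure was tested on simulated data.

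The labels give the mouse and the litter, which is also the replicate number and pairs the libraries. The main edgeR tests had no term for either, and the block was an alternative. Deviations of same-numbered libraries correlated, for littermates, at 0.0012 to 0.033 (HSC), 0.0067 to 0.17 (MPP) and 0.076 to 0.48 (HPC-1), and at 0.18 to 0.36 (controls) and 0.038 to 0.42 (deleted) for HSC and MPP of 1 mouse.

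All 32 members were accounted for; values in every library are given for up to 12 members past the threshold, by lowest adjusted p, or for the 4 with the lowest p where none passed. Members and lists were chosen with earlier results of these data known. Promoter sequences are from RefSeq (GRCm38.p6), 25 of the 32 members being matched; Vwf, Itgb3, Nfe2, Thbs1, Fli1, Clu and Rab27b were not. Levels of genes that overlap another gene (Gp1bb with Septin5, F2rl2 with Iqgap2, Clec1b with Clec12b, and others with predicted genes) are uncertain in the SMART-Seq libraries, which do not mark strand.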

Additional observations from a re-analysis of the deposited data

Results flagged for a closer look

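In groups of 4 libraries, a value was set apart where its gap to the nearest other value was large for the group's range by Dixon's test at its 95% limit. This held for 12 of 150 groups of member values, and chance alone picks about 1 in 20 groups. In HPC-1 of litter 4, Thbs1 was high in the control (18.76 CPM, others up to 3.165) and in the deleted mouse (20.67 CPM, others up to 1.352). Selp was high in the deleted mouse of litter 4, at 86.66 CPM in HPC-1 (others 23.95 to 33.6) and 43.35 CPM in MPP (others 4.564 to 9.599). These are libraries of 1 animal, whose HSC library also held the highest Selp value of deleted HSC, 82.49 CPM, without being set apart. Also in HPC-1 of litter 4, Itga2b was low in the control at 87.02 CPM (others 118.6 to 121.2) and Mfsd2b in the deleted mouse at 4.94 CPM (others 14.75 to 16.37).

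The MPP library of the deleted mouse of litter 3 had low Fli1 at 72.74 CPM (others 118.5 to 127.7) and high Ppbp at 47.06 CPM (others 4.002 to 6.782). In HSC of litter 1, Fli1 was low in the control at 148.6 CPM (others 178.9 to 183.6) and Itga2b in the deleted mouse at 318.2 CPM (others 517.6 to 543.2). In control MPP, Plek was high in litter 1 at 263.4 CPM (others 160.6 to 177.7) and Trpc6 in litter 3 at 74.76 CPM (others 30.4 to 37.06).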

How the results depend on the processing

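Of 52 fold changes of members followed through the alternatives, 1 turned its sign, that of Ppbp in the difference of the deletion effect between HPC-1 and MPP, 1.92 without replicate 2 (adjusted p = 0.992; range -4.25 to 1.92 without 1 replicate). For MPP against HSC, RLE size factors gave 21 members in controls and 19 in deleted mice, the replicate block gave the same 2 counts, DESeq2 gave 21 and 20, limma-voom 21 and 18 (Clu lost, adjusted p = 0.128), and no filter on low counts 20 and 19 (Itgb3 lost, adjusted p = 0.0808). Without 1 library the members past the threshold numbered 19 to 21 (controls) and 12 to 18 (deleted mice), and the genes 832 to 1338 and 54 to 208. With the replicate block 2109 genes passed in controls, in place of 1205, and DESeq2 passed 843 in deleted mice, in place of 196.

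For deletion, the replicate block gave 0 genes in HSC in place of 1, and 60 genes and 1 member in HPC-1 in place of 9 and 0. DESeq2 gave 14 genes in HSC, 96 genes and 1 member in MPP in place of 4 and 0, and 68 genes and 1 member in HPC-1. In HPC-1 limma-voom gave 3 genes, and no filter on low counts 20. Without 1 library the counts were 0 to 1 genes in HSC, 2 to 22 genes and 0 to 1 members in MPP, 1 to 11 genes in HPC-1 and 4 to 26 genes in the average. DESeq2 passed 2 genes for the difference of effects between MPP and HSC, 11 between HPC-1 and HSC (0 to 1 in edgeR without 1 replicate) and 7 between HPC-1 and MPP. The cause of these shifts was not tested. The block changed no other member's call than those given with the results. In MPP, Gp1bb, Cavin2 and Clu had at most 59 counts over 4 control libraries, which limits their fold changes.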

Other observations

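A list of 12 immediate early genes, such as Fos, Jun and Egr1, which are induced quickly when cells are stimulated or handled, was added after the Thbs1 and Selp values had been seen. In HPC-1 of litter 4 their summed level was 15670.0 CPM in the control and 14340.0 CPM in the deleted mouse, against 700.7 to 3643 CPM in the other 6 HPC-1 libraries. In deleted MPP, where Selp was also high in litter 4, the sum was 4170 CPM in litter 4 and 1126 to 3724 CPM in the other litters. The highest SMART-Seq sums were those of the litter 1 control, 6333 CPM in HSC and 6160 in MPP. The part of these sums in the Thbs1 and Selp levels was not tested.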
